A study of Mus musculus with 18 samples.

Results

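Connexins are the proteins of gap junctions, and 7 of their genes were followed through embryonic development of the mouse spinal cord: Gja1, Gjb6, Gjb2, Gjc1, Gja4, Gja5 and Gjd2. They were picked by symbol from the 23890 genes of the authors' module table, with no expression value in the rule. All 7 were found, and all 7 were among the 23834 genes tested.

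The embryos carried the Aldh1l1-GFP transgene on a Swiss-Webster background; in them green fluorescent protein is driven by regulatory sequence of the astrocyte enzyme gene Aldh1l1. Spinal cords were dissociated with papain and flow sorted, and RNA of the sorted cells was amplified and hybridised to 1 array per sample. For GFP-positive cells (GFP cells) there were 3 samples of E13.5 and 2 of E14.5, and 3 of a late age that joins 2 of E17.5 with 1 of E18.5. The comparison samples were taken as all live sorted cells, following the titles, with 3 arrays at each age and the same late make-up. Their cell type is given as whole spinal cord, and a treatment text shared by all samples speaks of GFP-negative cells. A sort of all live cells still holds the GFP cells, so a difference between both sorts is smaller than the contrast with GFP-negative cells would be. The transgene was present in all samples, and there was no untreated or non-transgenic group. Replicates are labelled biological, but no litter or animal is named, and p-values reflect only how these samples spread, which may be partly technical. A further array, whose title calls it mislabeled, entered no comparison.

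Connexins assemble in the membrane into hemichannels, which dock with those of a neighbouring cell and let ions and small metabolites pass. Astrocytes are joined by gap junctions into networks that take up potassium and share metabolites, and radial glia, their embryonic precursors, are coupled too. Endothelial cells, smooth muscle and neurons use other members of the family, so one tissue can express several connexins through different cells.

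The sort followed its label. Aldh1l1 itself was higher in GFP cells than in all live cells by 2.19 ± 0.12 on the log2 scale at E13.5, by 1.80 ± 0.14 a day later and by 0.96 ± 0.12 late (log2 difference ± standard error, limma). Of 11 astrocyte markers, 7 were higher in GFP cells of E13.5, 8 in those of E14.5 and 10 in late ones, and all 10 neuron markers were lower at each age. Of 6 radial glia markers, 5 were higher in GFP cells of E13.5, 5 in those of E14.5 and 2 in late ones, and 0 were lower. Gfap and Aqp4, markers of more mature astrocytes, did not differ between the sorts at E13.5 beyond the spread (log2 differences of -0.12 and 0.15), so the GFP cells of that age are better called GFP cells than astrocytes. Within a group, Pearson's r between arrays over the named genes was 0.985 to 0.993.

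Gjb2 and Gjb6 are neighbouring genes. In the RefSeq gene order they lie side by side on chromosome 14 on the same strand, with the lens connexin gene Gja3 on the other side of Gjb2. The 250 bases upstream of the annotated start are shown for these neighbours, both of which were called between ages in GFP cells, and for Gja1 and Gja5, which were placed in one coexpression module with Gjb6. They are from RefSeq (build GRCm38.p6) and are written 5′ to 3′ on the strand of the gene. Capitals mark a SOX core motif, and the position follows each sequence's name in the sentences after them.
Gja1: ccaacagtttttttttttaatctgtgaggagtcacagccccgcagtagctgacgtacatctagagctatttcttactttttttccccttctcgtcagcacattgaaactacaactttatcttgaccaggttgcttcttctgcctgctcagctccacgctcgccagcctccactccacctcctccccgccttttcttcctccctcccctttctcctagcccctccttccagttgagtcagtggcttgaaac
Gjb6: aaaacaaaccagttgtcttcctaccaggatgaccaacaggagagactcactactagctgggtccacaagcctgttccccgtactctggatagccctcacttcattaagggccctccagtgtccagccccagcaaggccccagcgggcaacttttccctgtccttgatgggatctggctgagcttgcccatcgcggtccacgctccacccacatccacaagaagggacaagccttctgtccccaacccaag
Gjb2: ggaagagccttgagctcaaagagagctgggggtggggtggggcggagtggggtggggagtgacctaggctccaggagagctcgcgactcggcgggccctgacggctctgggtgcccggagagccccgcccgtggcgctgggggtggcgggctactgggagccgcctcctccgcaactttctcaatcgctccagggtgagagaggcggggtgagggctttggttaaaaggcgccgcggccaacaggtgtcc
Gja5: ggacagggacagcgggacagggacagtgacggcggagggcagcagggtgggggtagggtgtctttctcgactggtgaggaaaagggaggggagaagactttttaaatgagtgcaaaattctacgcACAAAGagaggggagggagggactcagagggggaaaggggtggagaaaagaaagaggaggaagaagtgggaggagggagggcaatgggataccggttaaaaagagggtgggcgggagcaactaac

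The Gja1 sequence is chr10:56377050-56377299 on the plus strand, with 50% G and C. The Gjb6 sequence is chr14:57133612-57133861 on the minus strand, with 56.8% G and C, and that of Gjb2 is chr14:57104703-57104952 on the minus strand, with 69.2%. The Gja5 sequence is chr3:97032152-97032401 on the plus strand, with 56.4%. Of the 6 members with an entry in the table (Gjc1 was not matched), only Gja5 held any of the motifs searched on both strands, a single ACAAAG that begins 125 bases before the start (position -125). ACAAAG was found in 16.5% of the 32851 upstream sequences of this length, and ACAATG, the other SOX core searched, in 10.7%. The palindromic motif of nuclear factor I was found in 0.0365% and in no member.

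Values below are the deposited log2 expression values, 1 per array, given in replicate order with the E18.5 array last in each late group. A probe set's level was not compared with that of another probe set. Tests are from limma, fitted across all arrays, and a change was called at a Benjamini-Hochberg adjusted p under 0.05 over the 23834 genes. Counts of called members are given beside the share of all genes called in the same comparison.

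At E13.5, 3 of 7 members differed between GFP cells and all live cells, against 19.1% of all genes: Gja1 and Gjb2 were higher in GFP cells and Gjd2 was lower. At E14.5, 3 of 7 differed, against 18.54% of all genes: Gja1 and Gjc1 were higher and Gjd2 was lower. At the late age, 3 of 7 differed, against 9.29% of all genes: Gja1 and Gjb6 were higher and Gja4 was lower. Gja1 was thus the member called higher at all 3 ages, and Gja5 was called at none. Over all 7, the median log2 difference was 0.10, -0.28 and 0.18 in order of age, beside -0.04, -0.03 and 0.04 over all genes.

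**Figure D1:**
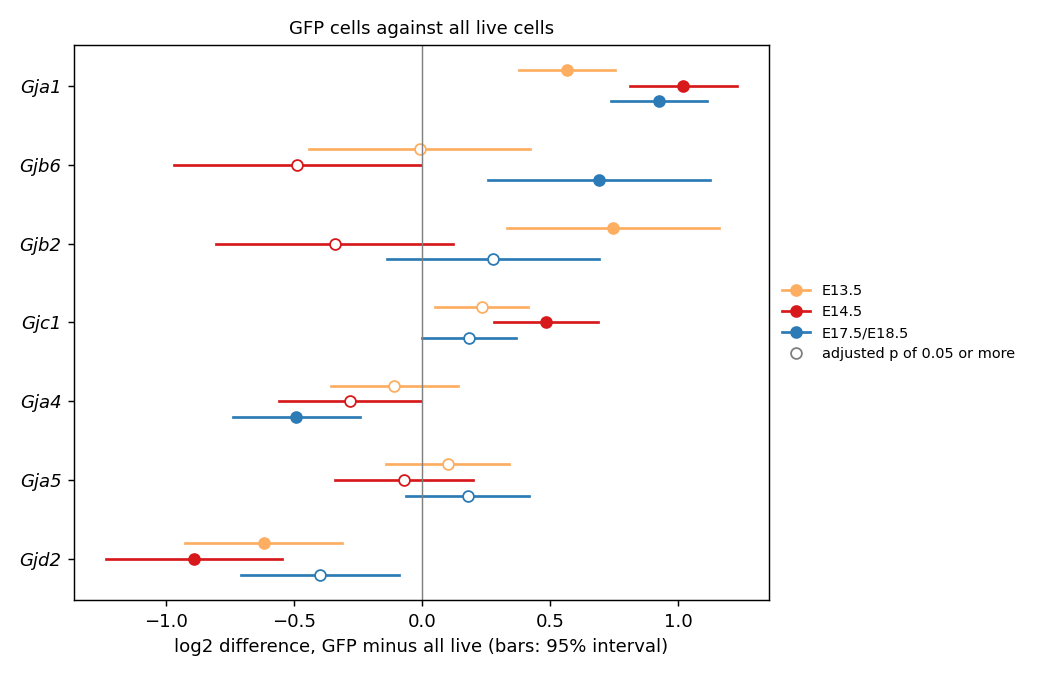
Log2 difference of GFP cells minus all live cells (horizontal axis) for each connexin at E13.5, E14.5 and the late age (colours), with 95% intervals from limma as bars. Filled points had an adjusted p under 0.05. Gja1 and Gjc1 lay to the right of 0 at each age, while Gjb2, Gjb6 and Gja5 changed side between ages. None of the values of Gjb2, Gjb6 and Gja5 to the left of 0 was called.

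Gja1 encodes the main connexin of astrocytes and radial glia. In GFP cells it read 10.48, 10.45 and 10.56 at E13.5, 10.88 and 10.86 at E14.5, and 11.995, 12.25 and 12.11 at the late age. In all live cells it read 9.88, 9.93 and 9.99 at E13.5, 9.69, 9.87 and 9.98 at E14.5, and 11.09, 11.30 and 11.19 at the late age. Every GFP array stood above every array of all live cells of the same age. In the order of the group means, late GFP cells came first and late all live cells second, ahead of GFP cells at E14.5 and E13.5. All live cells of E13.5 and E14.5 came last, and only this pair of neighbours overlapped.

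The level in GFP cells was 1.48 times that in all live cells at E13.5 (log2 difference 0.57 ± 0.09, limma adjusted p = 0.000176). It was 2.03 times at E14.5 (1.02 ± 0.10, limma adjusted p = 1.08e-06) and 1.90 times at the late age (0.93 ± 0.09, limma adjusted p = 2.80e-06). With age, Gja1 rose in GFP cells by 1.62 ± 0.09 from E13.5 to the late age, which is 3.08-fold (limma adjusted p = 2.01e-09). Most of that lay in the longer interval after E14.5, where the rise was 1.25 ± 0.10 (limma adjusted p = 7.50e-07). Rates per day were not compared. The step from E13.5 to E14.5 was 0.37 ± 0.10 and missed the threshold (limma adjusted p = 0.0802), although both E14.5 arrays were above the 3 of E13.5. It was called when only genes at or above the median mean level were tested (adjusted p = 0.0455). Over all alternatives this step lay between 0.35 and 0.40, and the limma adjusted p between 0.0455 and 0.360. All live cells rose as well, by 1.26 ± 0.09 from E13.5 to the late age (limma adjusted p = 2.12e-08), and by 1.35 ± 0.09 from E14.5 (limma adjusted p = 2.67e-08). The difference between both rises from E13.5 was 0.36 ± 0.13 and was not called (limma adjusted p = 0.123). Beside this, the mean of the 11 astrocyte markers lay at 9.52 to 9.58 in GFP cells of E13.5 and at 10.78 to 10.86 late, and at 8.59 to 8.61 and 10.12 to 10.15 in all live cells. The mean of 6 radial glia markers lay at 11.31 to 11.34 in GFP cells of E13.5 and at 11.08 to 11.15 late. In all live cells that mean lay at 10.33 to 10.39 at E13.5 and at 10.73 to 10.98 late. In samples of many cells, more cells of a type and more RNA per cell cannot be told apart.

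**Figure D2:**
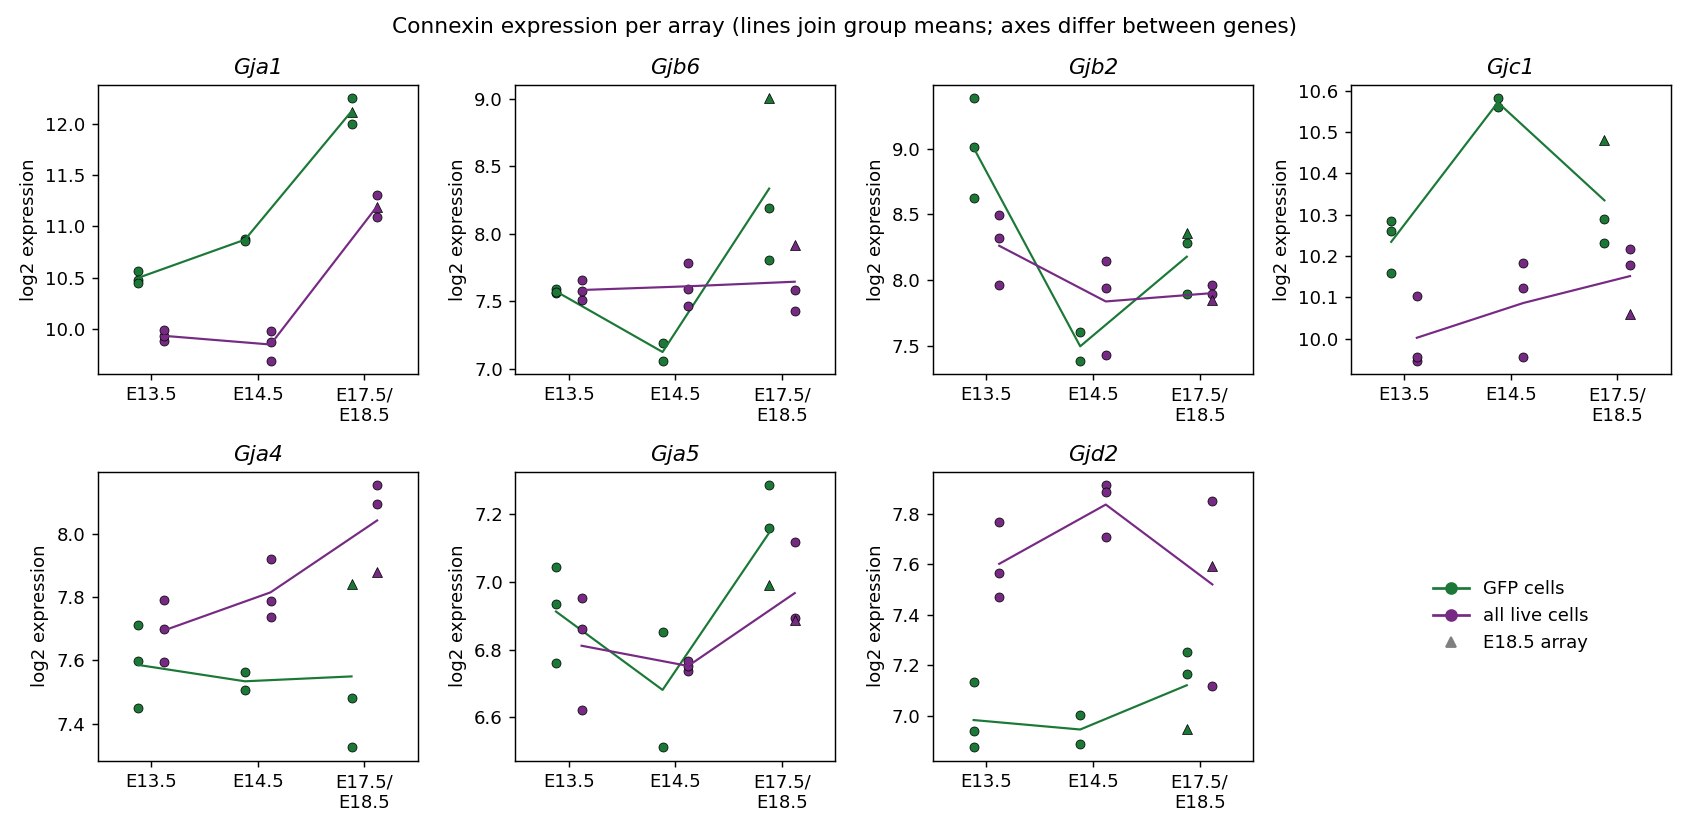
Log2 expression of each connexin on every array (points) at E13.5, E14.5 and E17.5/E18.5, in GFP cells (green) and all live cells (purple), with lines through group means and triangles for the E18.5 arrays; vertical axes differ between genes. The late GFP arrays of Gja1 lay at 11.995 to 12.25, above all others, while Gjb2 in GFP cells fell from 8.62 to 9.39 at E13.5 to 7.39 and 7.61 at E14.5.

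Gjb6 encodes a connexin that astrocytes of the mature brain and cord share with Gja1, and that epithelial cells of the cochlea use with Gjb2. It read 7.56, 7.59 and 7.57 in GFP cells of E13.5, 7.06 and 7.19 at E14.5, and 8.19, 7.81 and 9.01 late. All live cells read 7.51, 7.66 and 7.58 at E13.5, 7.59, 7.46 and 7.78 at E14.5, and 7.59, 7.43 and 7.92 late. The late GFP arrays were spread over more than a log2 unit, the E18.5 array was the highest in either sort, and the lowest late GFP array overlapped with late all live cells. At E14.5 both GFP arrays lay below all other arrays.

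Late GFP cells were 1.61 times as high as late all live cells in Gjb6 (0.69 ± 0.20, limma adjusted p = 0.0428). The call was lost without the E18.5 array of the GFP cells (0.36, adjusted p = 0.122), without the first late GFP array (adjusted p = 0.0614), or without either of the first 2 late arrays of all live cells (adjusted p = 0.110 and 0.137), and in a fit of these groups alone (adjusted p = 0.247). Without the E18.5 arrays of both sorts the difference was 0.49 and was called (adjusted p = 0.0259). At E13.5 no difference was seen (-0.01 ± 0.20), with a 95% interval from -0.44 to 0.42. At E14.5 the difference was -0.49 ± 0.23 and was not called (limma adjusted p = 0.170), except in a fit of these groups alone (adjusted p = 0.0205). In GFP cells Gjb6 rose by 0.76 ± 0.20 from E13.5 to the late age (limma adjusted p = 0.0163), and by 1.21 ± 0.23 from E14.5 (limma adjusted p = 0.00333). The first of these was 0.43 without the E18.5 array of the GFP cells (adjusted p = 0.0545), and passed the test at that size when the E18.5 arrays of both sorts were left out (adjusted p = 0.0229). It also missed the threshold without the first GFP array of E13.5 (adjusted p = 0.0502), as the second did without the first GFP array of E14.5 (adjusted p = 0.0516). Fits of these groups alone gave adjusted p = 0.0907 and 0.114. All live cells showed no such rise, at 0.06 ± 0.20 and 0.03 ± 0.20. A test of the difference itself gave 1.18 ± 0.31 between E14.5 and the late age (limma adjusted p = 0.0342), in a comparison added after these values were seen. That call was lost under quantile normalisation, in a fit of these groups alone and without any of 6 single arrays (adjusted p = 0.0505 to 0.135). From E13.5 that difference was 0.70 ± 0.29 and was not called (limma adjusted p = 0.201).

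Gjb2 encodes a connexin known from cochlear supporting cells, where its loss causes deafness, and from the meninges that cover brain and cord. GFP cells read 8.62, 9.01 and 9.39 at E13.5, 7.61 and 7.39 at E14.5, and 8.28, 7.89 and 8.36 late. All live cells read 7.97, 8.32 and 8.50 at E13.5, 8.14, 7.43 and 7.94 at E14.5, and 7.96, 7.89 and 7.85 late. GFP cells of E13.5 were the highest group, apart from all others, and GFP cells of E14.5 had the lowest mean but overlapped with all live cells of their age. The other neighbours in the order of the means overlapped too.

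At E13.5 Gjb2 was 1.68 times as high in GFP cells as in all live cells (0.75 ± 0.20, limma adjusted p = 0.0119). The call was lost without the highest GFP array (0.56, adjusted p = 0.0735) or the lowest array of all live cells (0.60, adjusted p = 0.0742). At E14.5 the difference was -0.34 ± 0.22 (adjusted p = 0.340, limma) and at the late age 0.28 ± 0.20 (adjusted p = 0.472, limma). Between E13.5 and E14.5 the level in GFP cells fell by 1.51 ± 0.22 on the log2 scale (limma adjusted p = 0.00163), to 0.351 times its value. Gjb2 was the member called in that comparison, 1 of 7 against 1.51% of all genes. Toward the late age it was 0.68 ± 0.22 above E14.5, which missed the threshold (limma adjusted p = 0.0798), and it stayed 0.83 ± 0.20 below E13.5 (limma adjusted p = 0.00730).

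In all live cells Gjb2 was 0.42 ± 0.20 lower at E14.5 than at E13.5 and was not called (adjusted p = 0.533, limma). The test of whether GFP cells fell more than all live cells gave -1.09 ± 0.29, with an unadjusted p of 0.00189 and an adjusted p of 0.316 (limma). The mean of 8 meningeal fibroblast markers was 7.38 to 7.53 in GFP cells of E13.5, below the 8.29 to 8.36 of all live cells, and 7.41 to 7.44 in GFP cells of E14.5. In GFP cells of E13.5, 7 of these markers were lower and 1 was higher.

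Gjc1 encodes a connexin of smooth muscle, of the cardiac conduction system and of immature neural cells. GFP cells read 10.26, 10.16 and 10.29 at E13.5, 10.56 and 10.58 at E14.5, and 10.23, 10.29 and 10.48 late. All live cells read 10.10, 9.95 and 9.96 at E13.5, 9.95, 10.18 and 10.12 at E14.5, and 10.18, 10.22 and 10.06 late. At each age the GFP arrays lay above those of all live cells, and the groups did not overlap. GFP cells of E14.5 were first in the order of means and stood apart from the next, whereas every pair of later neighbours overlapped.

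The difference in Gjc1 passed the test at E14.5, at 1.40-fold (0.49 ± 0.10, limma adjusted p = 0.00138). At E13.5 it was 0.23 ± 0.09 (limma adjusted p = 0.0715), and it was called when arrays were shifted to a common median (0.27, adjusted p = 0.0319) or when only genes at or above the median mean level were tested (adjusted p = 0.0440). Over all alternatives the E13.5 difference lay between 0.11 and 0.28, and the limma adjusted p between 0.0319 and 0.519. At the late age it was 0.18 ± 0.09 (limma adjusted p = 0.231). No comparison of ages was called for Gjc1. The step from E13.5 to E14.5 in GFP cells was 0.34 ± 0.10 (limma adjusted p = 0.109), and that from E14.5 to the late age was -0.24 ± 0.10 (limma adjusted p = 0.180).

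Gja4 and Gja5 encode connexins of arterial endothelium. Gja4 read 7.45, 7.60 and 7.71 in GFP cells of E13.5, 7.56 and 7.50 at E14.5, and 7.48, 7.32 and 7.84 late. In all live cells it read 7.79, 7.70 and 7.60 at E13.5, 7.74, 7.92 and 7.79 at E14.5, and 8.16, 8.09 and 7.88 late. GFP cells of the 3 ages overlapped, and all live cells had their highest values late. All neighbours in the order of means overlapped, but late GFP cells lay below late all live cells without overlap.

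Late all live cells were 1.41 times as high as late GFP cells in Gja4 (-0.49 ± 0.12, limma adjusted p = 0.0118). The call was lost without either of the E17.5 arrays of the GFP cells (adjusted p of 0.05, just past the threshold, and 0.0699) or the first array of late all live cells (adjusted p = 0.0553), and in a fit of these groups alone (adjusted p = 0.114). In all live cells Gja4 rose by 0.35 ± 0.12 from E13.5 to the late age (limma adjusted p = 0.0455). This call was lost when arrays were quantile normalised (adjusted p = 0.0526) and without any one of the 3 E13.5 arrays or the 2 E17.5 arrays (adjusted p = 0.0538 to 0.160). In that comparison 2 of 7 members were called, Gja1 being the other, against 20.2% of all genes. GFP cells showed no change in Gja4 over the same ages beyond the spread (-0.04 ± 0.12, 95% interval -0.28 to 0.21). The difference between both changes was -0.38 ± 0.17 and was not called (limma adjusted p = 0.223). Without the E18.5 arrays of both sorts it was -0.61 and was called (limma adjusted p = 0.0180). In that setting the late difference between sorts was -0.72 and the rise in all live cells 0.43, both called (limma adjusted p = 0.000556 and 0.00454).

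Endothelial and mural markers moved with Gja4. Of 10 endothelial markers, 8 were lower in late GFP cells and none was higher, and of 9 mural markers 5 were lower. The mean of the endothelial markers lay at 7.18 to 7.21 in late GFP cells and at 8.11 to 8.26 in late all live cells, up from 7.31 to 7.33 at E13.5, where 9 of 10 then rose. Of 6 arterial endothelial markers, 1 was higher and 1 lower in late GFP cells, and in all live cells 1 rose and 2 fell from E13.5 to the late age. The part of vessel content in the Gja4 result was not tested.

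Gja5 read 7.04, 6.76 and 6.93 in GFP cells of E13.5, 6.51 and 6.85 at E14.5, and 7.16, 7.29 and 6.99 late. All live cells read 6.62, 6.86 and 6.95 at E13.5, 6.74, 6.75 and 6.77 at E14.5, and 6.89, 7.12 and 6.89 late. The sorts overlapped at each age, and so did all neighbours in the order of means. The differences between sorts were 0.10 ± 0.11, -0.07 ± 0.13 and 0.18 ± 0.11 with age, none of them called (limma adjusted p = 0.412 to 0.773). The 95% intervals reached no further than -0.34 and 0.42. GFP cells rose by 0.46 ± 0.13 from E14.5 to the late age (limma adjusted p = 0.0384). That call was lost under quantile normalisation (0.39, adjusted p = 0.109) and without the first GFP array of E14.5, where it was 0.29 (adjusted p = 0.396). It was also lost with a common median, in a fit of these groups alone, and without either E17.5 array (adjusted p = 0.0647 to 0.167). Arterial endothelial markers did not split the sorts in one direction: 1 of 6 was higher and 1 lower in GFP cells at each age.

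Gjd2 encodes the connexin of electrical synapses between neurons. GFP cells read 6.87, 6.94 and 7.13 at E13.5, 6.89 and 7.002 at E14.5, and 7.16, 7.25 and 6.95 late. All live cells read 7.57, 7.47 and 7.77 at E13.5, 7.92, 7.71 and 7.89 at E14.5, and 7.85, 7.12 and 7.60 late. The sorts were apart at E13.5 and E14.5 and overlapped late, where a single array of all live cells came down to the level of GFP cells. In the order of means all live cells held the first 3 places and GFP cells the last 3, with each pair of neighbours overlapping.

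All live cells were 1.54 times as high as GFP cells in Gjd2 at E13.5 (-0.62 ± 0.15, limma adjusted p = 0.00554) and 1.86 times at E14.5 (-0.89 ± 0.16, limma adjusted p = 0.000669). At the late age the difference was -0.40 ± 0.15 and missed the threshold (limma adjusted p = 0.105). Without the low late array of all live cells it was -0.60 (adjusted p = 0.00468). No comparison of ages was called for Gjd2 in either sort. Neuron markers were lower in GFP cells than in all live cells too. Their mean over 10 genes was 9.50 to 9.61 in GFP cells of E13.5 against 10.93 to 11.00 in all live cells. Late it was 8.07 to 8.16 against 9.52 to 9.78. Over age they did not run with Gjd2. In all live cells 9 of the 10 fell between E13.5 and the late age, while the difference in Gjd2 was -0.08 ± 0.15. In GFP cells 8 of the 10 fell, while the difference in Gjd2 was 0.14 ± 0.15. The part of neuron content in the Gjd2 result was not tested.

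Across ages in GFP cells, 3 of 7 members differed between E13.5 and the late age, against 16.3% of all genes: Gja1 and Gjb6 rose and Gjb2 fell. Between E14.5 and the late age 3 of 7 rose, namely Gja1, Gjb6 and Gja5, against 6.23% of all genes. For the difference between sorts no member was called from E13.5 to the late age, against 4.6% of all genes; limma gave an unadjusted p under 0.05 for 3 of the 7 (Gja1, Gja4 and Gjb6). Comparisons added after these values were seen gave no call in all live cells from E13.5 to E14.5, against 1.13% of all genes, with 1 member at an unadjusted p under 0.05 (Gjb2, limma). From E14.5 to the late age 1 of 7 was called in all live cells, Gja1, against 18.3%. For the difference between sorts none was called from E13.5 to E14.5, against 0.0503% of all genes, with 2 members at an unadjusted p under 0.05 (Gja1 and Gjb2, limma). From E14.5 to the late age 1 was called, Gjb6, against 5.14%. These comparisons share groups of arrays, so their values are not independent of each other.

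**Figure D3:**
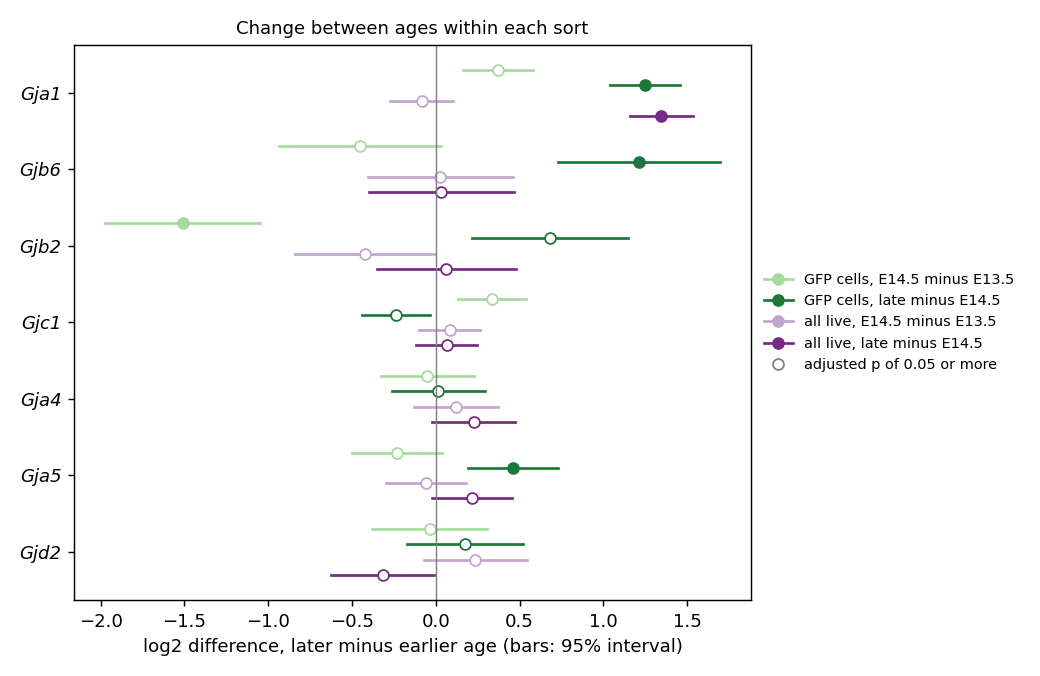
Log2 difference of the later minus the earlier age (horizontal axis) for each connexin, in GFP cells (greens) and all live cells (purples), for E14.5 minus E13.5 and late minus E14.5, with 95% intervals from limma as bars and filled points where the adjusted p was under 0.05. Gjb2 in GFP cells stood at -1.51 for the first step, and Gja1 passed the test in both sorts for the second.

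Both neighbours, Gjb2 and Gjb6, read lower in GFP cells of E14.5 than at E13.5, with ranges apart, by log2 differences of -1.51 for Gjb2 and -0.45 ± 0.23 for Gjb6. The first was called and the second was not (limma adjusted p = 0.484), except in a fit of these groups alone (adjusted p = 0.0345). Between E13.5 and the late age Gjb2 fell by 0.83 and Gjb6 rose by 0.76 on the log2 scale, both called. Between E14.5 and the late age both were higher, by 0.68 and 1.21, with the rise of Gjb6 called. No test compared the courses of both genes. Over the 17 arrays their log2 values correlated at r = 0.25. Other pairs of members ranged from -0.72 for Gjc1 with Gjd2 to 0.66 for Gja1 with Gja5, and Gja1 with Gjb6 stood at 0.52. These correlations describe 17 arrays that share groups and have no test.

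The authors' deposited module table gives, for each gene, its correlation with the profile of each of 10 coexpression modules (kME), computed over the same 17 arrays on the linear scale. Gja1 had a kME of 0.95 with the yellow module, which the authors' note describes with astrocytes, late age and Apoe, and it was the member placed there by the stricter assignment as well. Gjb6 (0.65) and Gja5 (0.62) were assigned to the same module by the wider rule of the table, which holds 950 genes. Gjc1 was assigned to the turquoise module (0.75), noted for astrocytes of middle age and Id3. Gjb2 was assigned to the black module (0.65), noted as an early one, and had -0.23 with the yellow module. Gja4 went with the magenta module (0.84), noted with Vtn and Ets1, and Gjd2 with the blue one (0.80), noted as not astrocytic. The 7 connexins thus fell into 5 modules, all but Gja1 by the wider rule alone. Some had a close second module: Gja5 had 0.61 with the pink module and Gjd2 0.76 with the purple one.

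**Figure D4:**
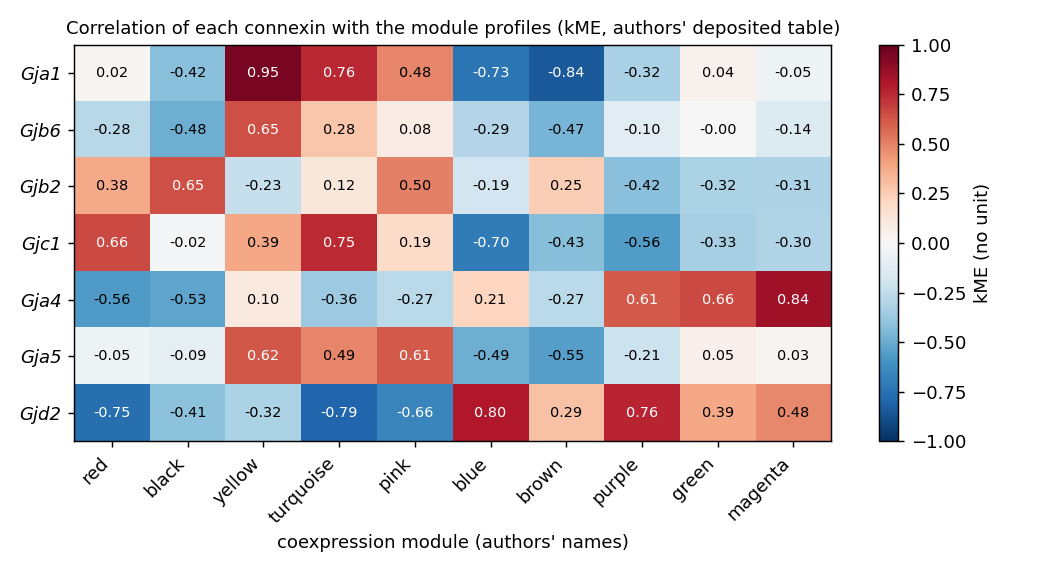
Authors' deposited kME (correlation, no unit, colour from -1 to 1) of each connexin (rows) with each of the 10 coexpression modules (columns). The highest value of each connexin lay in the module it was assigned to, from 0.62 for Gja5 to 0.95 for Gja1.

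Genes with the most similar pattern were taken as the 3 with the highest Pearson r of log2 values over the 17 arrays. For Gja1 these were the amino acid transporter genes Slc38a3 (0.98) and Slc7a10 (0.98) and Ahcyl1 (0.98). For Gjb6 they were the potassium channel gene Kcnt1 (0.89), 1500035N22Rik (0.88) and Ranbp3l (0.86). For Gjb2 they were 1700010I14Rik (0.83), Phb2 (0.82) and Vgll3 (0.80). Gjc1 was nearest to Lhcgr (0.94), Cklf (0.90) and Zhx1 (0.90). Gja4 was nearest to Srgn (0.87), the carbonic anhydrase gene Car4 (0.87) and Vtn (0.86), the gene of vitronectin. Gja5 was nearest to Fbln1 (0.85), Osbpl1a (0.85) and Epm2a (0.84). For Gjd2, Agap2 (0.96) and the ryanodine receptor gene Ryr3 (0.93) were among them. The highest r among 23834 genes is large by selection, and the arrays share group structure.

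Of the other connexins and the related pannexins, 15 of 16 listed genes were measured under a usable name, and few differed. At E14.5 only Panx1, a pannexin channel gene, was called, lower in GFP cells (-0.61 ± 0.13, limma adjusted p = 0.00195). At the late age only the gene the files call Gje1 was called, at a level 3.38 times as high in all live cells as in GFP cells (-1.76 ± 0.19, limma adjusted p = 1.21e-05). In RefSeq Gje1 is a current symbol and also an older symbol of Gjc3, a connexin of myelinating glia. The symbol alone does not settle which is meant. The authors' description of it is gap junction membrane channel protein epsilon 1. This gene was placed by the authors' stricter assignment in the green module (kME 0.97), which their note describes with cd45. It rose in all live cells by 1.28 ± 0.19 from E13.5 to the late age, and the change differed between sorts by -1.58 ± 0.27 (limma adjusted p = 0.00236). Oligodendrocyte lineage markers were lower in late GFP cells for 7 of 9 genes, and microglia markers for 9 of 9. Their part in that result was not tested. Panx1 fell from E13.5 to the late age in both sorts, by 0.56 ± 0.11 in GFP cells and by 0.46 ± 0.11 in all live cells.

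Proteins that bind, traffic or scaffold connexins were represented by 18 genes, all measured. In GFP cells 7 were higher and 1 lower at E13.5, 8 and 1 a day later, and 4 and 1 late, against 19.1%, 18.54% and 9.29% of all genes called in either direction. At E13.5 the largest were Ezr (1.11 ± 0.12), which links membrane proteins to actin, Tjp1 (0.72 ± 0.09), whose product binds the tail of the Gja1 protein, Cav1 (0.67 ± 0.16) and Eps15 (0.61 ± 0.10). At E14.5 they were Cav1 (1.21 ± 0.18), Ezr (1.11 ± 0.13), Eps15 (0.76 ± 0.11), which acts in endocytosis, and Tjp1 (0.70 ± 0.10). Late GFP cells were lower in Cav1 (-0.98 ± 0.16), a caveolin gene that endothelium expresses strongly, and higher in Ezr (0.68 ± 0.12), Eps15 (0.51 ± 0.10) and Cdh2 (0.44 ± 0.08). Between E13.5 and the late age in GFP cells, where Gja1 rose, 3 of the 18 rose and 5 fell, against 16.3% of all genes called. The largest changes were Tsg101 (-0.85 ± 0.10), Afdn (-0.76 ± 0.11), Dbn1 (-0.59 ± 0.08) and Eps15 (0.47 ± 0.10). The difference in Tjp1 there was -0.03 ± 0.09.

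In the authors' deposited tables of GFP cells over all live cells, Gjb2 was listed at E13.5 with a fold of 1.68 (adjusted p 0.0342) and Gjd2 with 0.651 (adjusted p 0.0669), among 1875 genes. No connexin was among the 552 genes of the authors' deposited table of E14.5, where Gja1, Gjc1 and Gjd2 were called here. That table holds 3 unmatched columns whose headings point to GFP cells of E14.5, whereas 2 such arrays were used here. The arrays behind both comparisons of E14.5 may therefore differ. Gja1 at E13.5 and Gja4 at the late age, called here, were not listed by the authors either. The authors' deposited table of the late age, of 683 genes, listed Gja1 with a fold of 1.90 (adjusted p 0.0457), Gjb6 with 1.61 (adjusted p 0.0988) and Gje1 with 0.296 (adjusted p 0.000172). The folds of Gjb2, Gjd2, Gja1 and Gjb6 there equal those computed here to 3 digits, and the adjusted p-values differ with the fit.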

How the data were processed

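The members and gene lists were chosen with earlier results of these data known. The authors deposited a log2 value for each of 35556 probe sets on each array. The tools oligo, RMA and limma and the build mm9 are named, without versions, per the submitters' processing notes. The authors' deposited module table gives a score per gene and module (kME) with its p-value, and the authors' comparison tables give a linear fold (ratio of GFP to whole) with p-values. In the comparison tables of both earlier ages, 6 columns that matched no sample label were not used (3 in each). Their headings point to GFP cells of E14.5, for which 2 arrays were used here.

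Probe sets carry no names in the value table. They were named by matching values: kME was recomputed as the Pearson correlation of linear values over the 17 assigned arrays, and all 23890 genes found a probe set at a tolerance of 1e-08 (135 of them several). Of 37 genes with several probe sets the brightest was used, and 16 genes that shared a probe set with another were left out, giving 23834. Symbols follow a RefSeq table (GRCm38.p6): 17253 were current, 3382 older and 3255 not found.

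A single limma 3.58.1 model (R 4.3.3) covered the 17 arrays (6 group means, eBayes, 11 residual and 5.43 prior degrees of freedom; no block). There were 8 planned contrasts and 4 added later, each two-sided and adjusted by Benjamini-Hochberg over all genes, with calls under 0.05. Errors after ± are standard errors from limma. The fit was tested on simulated data. Alternatives were quantile normalisation, a common median, averaged probe sets, an intensity trend, a filter on dim genes, a fit on the groups compared alone, leaving out the E18.5 arrays or each array in turn, and the replicate number as a block. Arrays carry no read depth; their number limits the precision. All 7 members were named throughout. From the lists of other connexins and of connexin partners only genes past the threshold were named, at most 4 per comparison, and Tjp1 in 1 comparison where it did not pass, chosen after its values were seen. Cell type markers served as a check. The protein motifs of the plan were not searched. Some results for genes of these lists are not reported here.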

Additional observations from a re-analysis of the deposited data

Results flagged for a closer look

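The GFP minus all live difference in Gjb6 changed between E14.5 and the late age by 1.18 ± 0.31 on the log2 scale, in a test of the difference itself (limma adjusted p = 0.0342). That comparison was added after these values were seen. Its call was lost under quantile normalisation, in a fit of these groups alone and without some single arrays. The GFP arrays went from 7.06 and 7.19 to 8.19, 7.81 and 9.01, while all live cells overlapped between these ages. Over the alternatives the value lay between 0.84 and 1.44, and the adjusted p between 0.00388 and 0.135.

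The array of unknown identity had Gjb2 at 8.32, Gjb6 at 7.78 and Gjd2 at 8.10, each above the highest of the 3 arrays of all live cells of E14.5, the age on its label. Those arrays reached 8.14, 7.78 and 7.92, so the gap was below 0.01 for Gjb6. The GFP arrays of E14.5 reached 7.61, 7.19 and 7.002. No test was made with this array, and none of its values entered a comparison.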

How the results depend on the processing

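Of 1205 recomputed values for single members, 1153 kept their side of the threshold over 26 settings, 40 lost their call and 12 gained one, and no called value changed sign; no call of Gja1 was lost. Counts of members called that moved by over 1.5 times were as follows; smaller moves, each by 1 member, are not all listed. Late GFP against all live cells went from 3 to 1 without dim genes and to 1 in a fit of the groups compared alone, and to 1 to 3 when each array was left out in turn. GFP E14.5 against E13.5 went from 1 to 2 without dim genes, with those groups alone and with a replicate block, and stayed at 1 on leaving out arrays. GFP late against E14.5 went from 3 to 1 without dim genes and with those groups alone, and to 1 to 3 on leaving out arrays. All live cells late against E13.5 went from 2 to 1 under quantile normalisation, a common median, no dim genes or a replicate block, and to 1 to 2 on leaving out arrays. For the difference between sorts from E13.5 to the late age the count of 0 became 1 (Gja4) without the E18.5 arrays, and 0 to 1 on leaving out arrays. All live cells late against E14.5 went from 1 to 2 without the E18.5 arrays, and to 1 to 2 on leaving out arrays. For the difference between sorts from E14.5 to the late age the count of 1 became 0 under quantile normalisation, without dim genes and with those groups alone, and 0 to 1 on leaving out arrays. The filter on dim genes leaves Gja4, Gja5, Gjb6 and Gjd2 untested by construction; the cause of the other changes was not tested.

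Counts over all genes that moved by over 1.5 times were 1020 in place of 2214 for the late sorts with those groups alone, 545 in place of 1486 for GFP late against E14.5 and 695 in place of 1226 for the added difference between sorts. For 359 genes in GFP E14.5 against E13.5 the range on leaving out arrays was 102 to 248. For GFP late against E14.5 it was 660 to 1355, for all live E14.5 against E13.5 it was 93 to 173 in place of 269, for the difference between sorts from E13.5 to E14.5 it was 4 to 12 in place of 12 (41 with those groups alone), and from E14.5 to the late age 644 to 1306. The planned model did not take the replicate numbers as pairs. Over all genes, deviations from the group means correlated between same-numbered arrays of both sorts at r from -0.08 to 0.12. At the late age, same-numbered arrays 2 and 3 stood at 0.12 and 0.10, and the crossed arrays 2 with 3 at -0.10 and -0.18. With 2 or 3 arrays per group, this check cannot exclude pairing. With the replicate number within each age as a block, late GFP against all live gave 2 members in place of 3, Gja4 being lost at an adjusted p of 0.0594. With the number shared across ages as a block, Gja5 was lost in GFP late against E14.5 (adjusted p 0.0511), Gja4 in all live cells late against E13.5 (0.0645), and Gja1 was gained in GFP E14.5 against E13.5 (0.0483).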

Other observations

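The array that its title calls mislabeled has the age label E14.5 and an unknown cell type, though the title also names Aldh1l1-GFP positive cells. Its Aldh1l1 value was 7.13, below every assigned array. In Gja1 it read 9.43 and in Gjc1 9.84, both also below every assigned array. It read 7.77 in Gja4 and 6.60 in Gja5, values within the range of the assigned arrays. Its Gjd2 value of 8.10 was above every assigned array.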
